A study of Mus musculus with 12 samples.

Results

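Adrenal RNA of mice given aspartame (ASP) together with the NMDA receptor antagonist CGP 39551 (CGP) was compared with adrenal RNA of untreated control (CON) mice. All 3 arrays labelled for the combined treatment (ASP+CGP) and all 3 labelled as controls were used, 6 of the 12 arrays of the study. Each gene was read from 1 probe set, the one with the highest mean over the 12 arrays, and the comparison was made both on the deposited log2 signals and after the dependence of each array on signal level had been removed.

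Every mouse was a male C57Bl/6J animal of 21 weeks. CON mice received neither compound. Water containing aspartame at 46 mg/kg body weight was given to the dams and then to the offspring until the adrenals were taken. CGP 39551, a competitive antagonist that is active by mouth, was put in the water of the dams alone, at 5 mg/kg, so that offspring met it through their mothers from conception to weaning on postnatal day 28. The ASP+CGP mice were thus off the antagonist and still on aspartame at the time of sampling. The other 2 groups of 3 arrays, aspartame alone (ASP) and antagonist alone (CGP), enter below only where they show how the combined treatment differed. The adrenal RNA of the mice of a group was pooled before hybridisation, and the 3 arrays of a group read 1 pool. P-values therefore rest on how far arrays of the same pool differ, not mice, and a feature of a few glands in a pool cannot be told apart from an effect of the treatment.

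The adrenal holds a cortex, which makes steroids from cholesterol, and a medulla of chromaffin cells, which make catecholamines. NMDA receptors are glutamate-gated ion channels that pass calcium, and aspartame is the methyl ester of a dipeptide of aspartate, itself an agonist of these receptors, and phenylalanine. Hepatocytes, which appear below because their genes are read in all 4 pools, make the plasma proteins, many cytochromes P450 and the enzymes that break down amino acids.

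The ASP+CGP arrays had a narrower range of signals than the controls. Their interquartile ranges were 2.20 to 2.29 log2 units against 2.58 to 2.62 on the CON arrays. Dim genes were shifted up and genes of middle brightness down. The median ASP+CGP minus CON difference was 0.27 for the 592 genes whose mean of both groups was under 6, 0.23 for the 3287 genes between 6 and 7, -0.33 for the 2583 genes between 9 and 10, and -0.015 for the 58 genes at 13 or more. The median over all 15900 genes tested was -0.17. After a smooth curve of signal level had been subtracted from each array the bin medians lay between -0.016 and 0.035 and the median of all genes was -0.0045. Calls were made on both scales. A difference printed below without a scale is the deposited one, and it has to be read against the shift of genes as bright as itself.

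**Figure D1:**
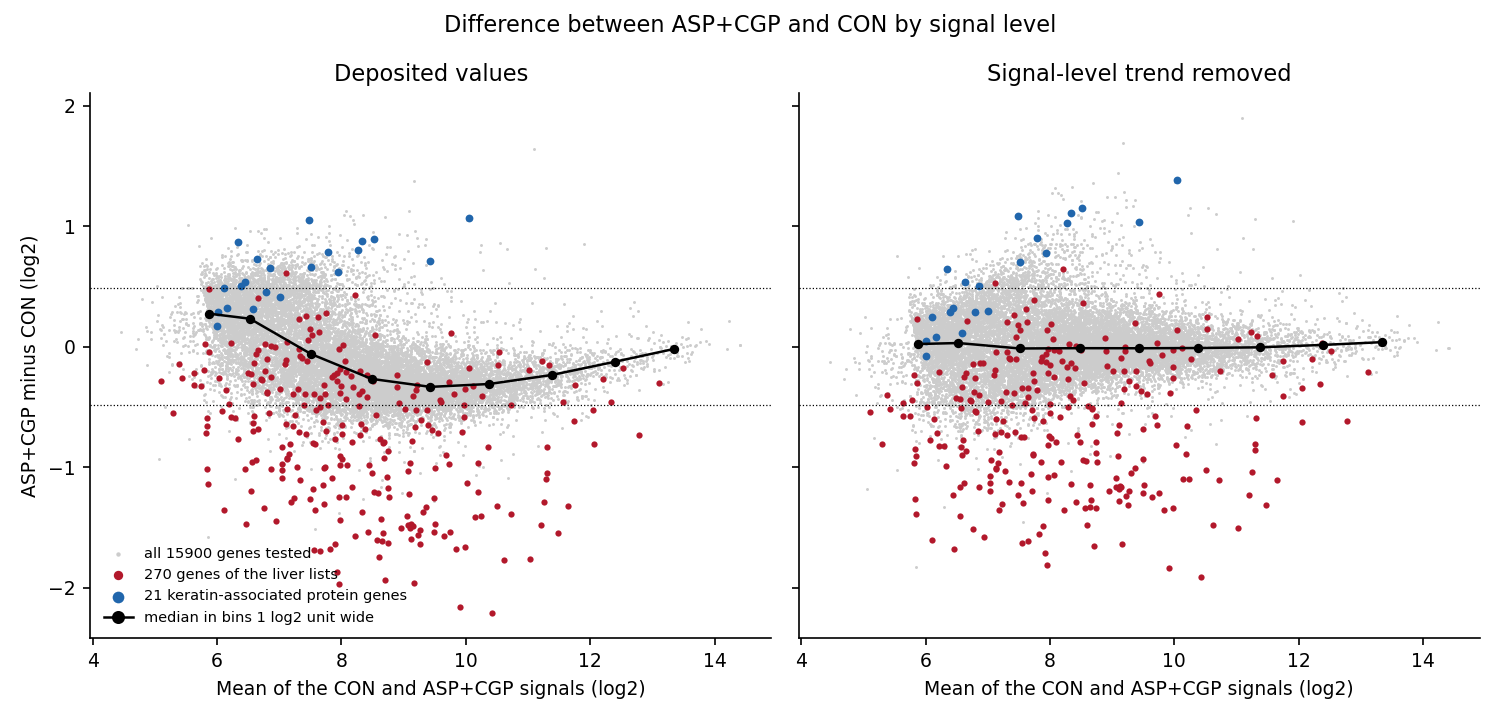
Log2 difference between ASP+CGP and CON (vertical axis) against the mean of the CON and ASP+CGP log2 signals (horizontal axis), for deposited values on the left and with the signal-level trend removed on the right. Each point is a gene, the black line joins the medians of bins 1 log2 unit wide, and the dotted lines mark the 1.4-fold minimum. The black line bends from above 0 to below 0 on the left and is flat on the right, and the 270 genes of the liver lists lie mostly below it in both panels.

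A gene was called where limma gave an adjusted p under 0.05 and the difference was at least 1.4-fold. On deposited values 969 of 15900 genes (6.09%) were higher and 1323 (8.32%) lower in ASP+CGP than in CON, so that 42.3% of calls were higher. With the trend removed 747 (4.7%) were higher and 538 (3.38%) lower, and 58.1% of calls were higher. Calls in the same direction on both scales, called both ways below, numbered 505 higher (3.18%) and 344 lower (2.16%). No gene was called in opposite directions. At a minimum of 1.8-fold the balance was to the lower side, with 35 genes higher and 103 lower both ways. Of the 505 genes that were higher, 175 had a CON mean under 7 and 19 a CON mean of 9 or more.

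The arrays read as adrenal in both groups. The 8 defining markers of the cortex had CON means from 11.52 to 13.90, and none was called. Cyp11b1, the enzyme that completes corticosterone synthesis, read 13.92, 13.89 and 13.88 on the CON arrays and 13.96, 13.92 and 13.86 on the ASP+CGP arrays. Of the 8 chromaffin markers 7 were tested, with CON means of 9.32 to 13.60, and none was called. Th, the first enzyme of catecholamine synthesis, read 13.37, 13.42 and 13.37 in CON and 13.31, 13.30 and 13.28 in ASP+CGP. Hepatocyte markers were read in the control gland too, and 8 of 8 were tested, with CON means of 9.01 to 13.15.

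Genes of liver function fell together in ASP+CGP. Of 274 genes on 12 lists of liver genes 270 were tested, and 141 of them (52.2%) were lower both ways, against 2.16% of all genes and 1.3% of the 15630 genes on no liver list. A single one, Foxa1, was higher both ways. The median difference of the 270 genes was -0.65 on deposited values and -0.58 with the trend removed, against -0.17 and -0.0045 for all genes tested. Liver-list genes made up 41% of the 344 genes that were lower. Bright and dim genes both took part: 67 of the 110 liver-list genes with a CON mean of 9 or more were lower both ways (60.9%) against 32 of 4958 other genes as bright (0.645%), and 74 of 160 dimmer ones (46.2%) against 171 of 10672 (1.6%). A further 21 liver-list genes were lower on deposited values only. The members of these and the other lists were chosen with earlier results of these data known. The shares therefore describe the lists and are no independent test. In bulk RNA fewer cells of a type and less RNA per cell cannot be told apart.

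**Figure D2:**
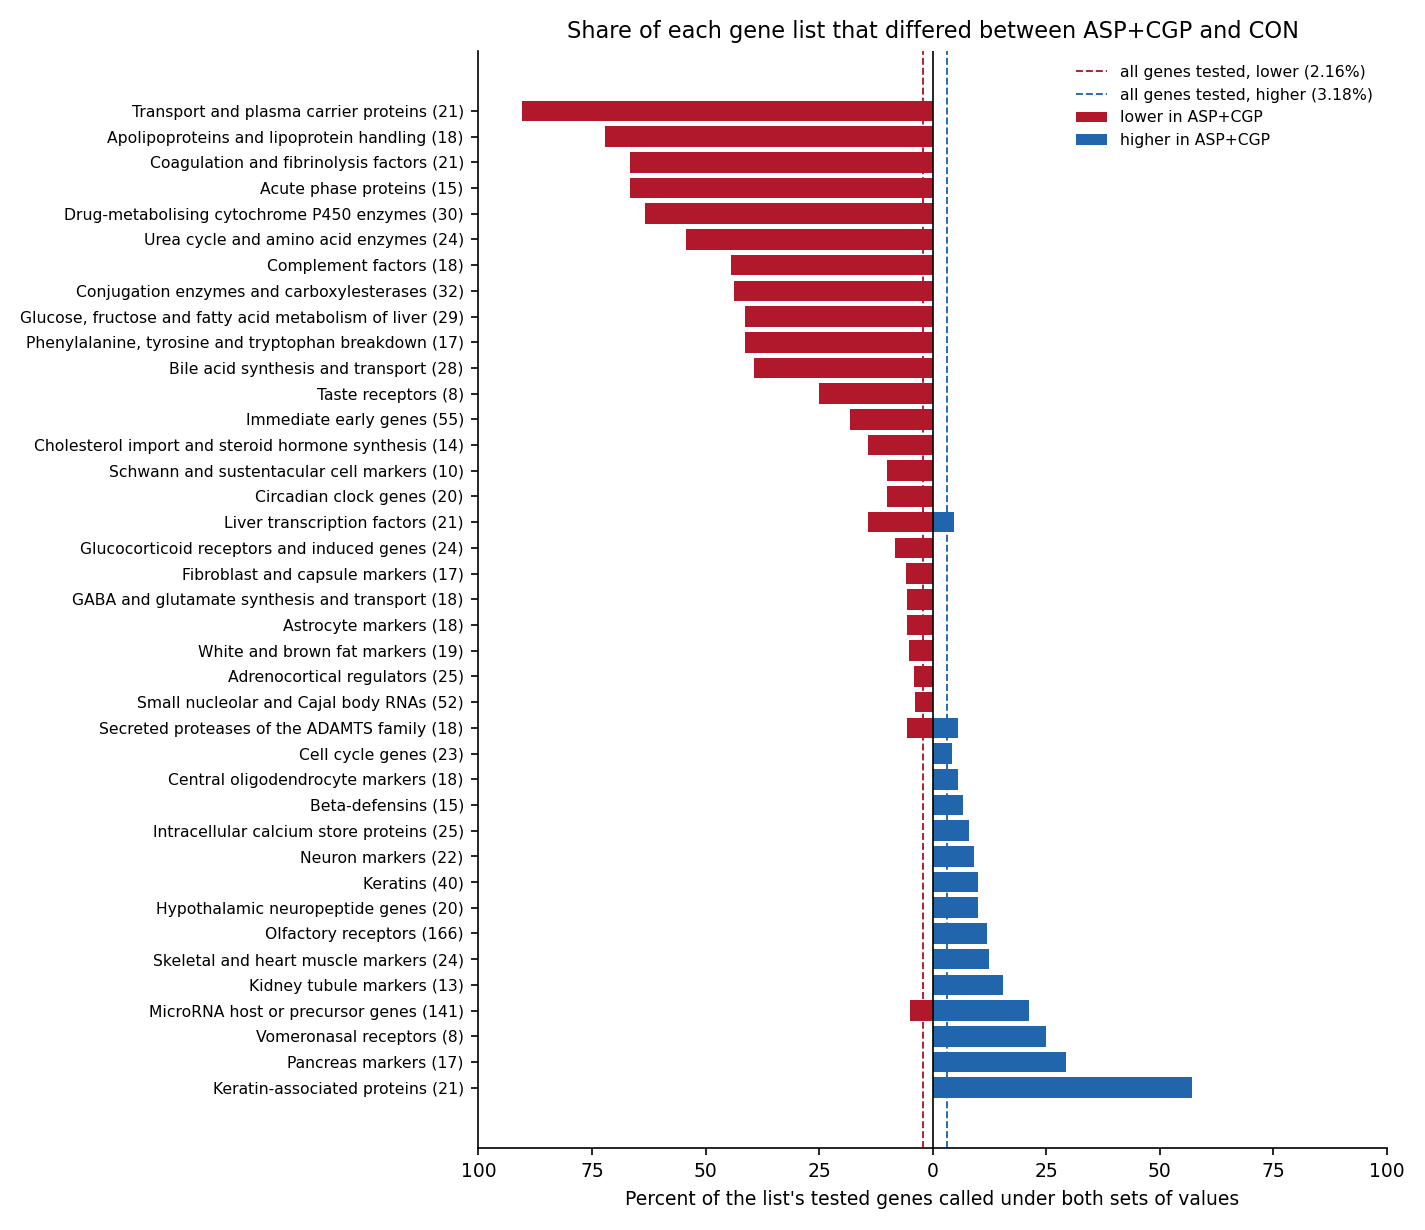
Percent of the tested genes of each list (number tested in brackets) that were called lower (red, to the left) or higher (blue, to the right) in ASP+CGP than in CON on both scales. Lists with no such gene or fewer than 8 tested genes are left out, and the dashed lines give the share of all genes tested, 2.16% lower and 3.18% higher. The liver lists fill the top of the plot with shares of 39.3% to 90.5%, except for liver transcription factors, and keratin-associated proteins stand at the bottom.

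All 8 defining hepatocyte markers were lower on deposited values, and 7 of them both ways. Alb, the gene of serum albumin, read 12.49, 12.39 and 12.36 on the ASP+CGP arrays against 13.15, 13.18 and 13.12 on the CON arrays, a log2 difference of -0.74 (SE 0.056, adjusted p = 3.55e-07). Apob, the scaffold of very low density lipoprotein, read 7.67, 7.79 and 7.503 against 9.17, 9.26 and 9.16, a difference of -1.54 (SE 0.069, adjusted p = 9.01e-10). For both genes the 2 groups were far apart and the arrays within a group close together. Hnf4a, the nuclear receptor that keeps hepatocytes differentiated, read 8.02, 8.14 and 7.73 against 8.99, 9.05 and 8.99, a difference of -1.05 (SE 0.088, adjusted p = 9.54e-07). Trf, the gene of the plasma iron carrier transferrin, had the smallest difference of the 8, -0.61 on deposited values and -0.41 with the trend removed, where it missed the 1.4-fold minimum. Summed over the 8 markers, the log2 signal was 14.61 to 14.65 on the CON arrays and 13.60 to 13.74 on the ASP+CGP arrays, and it was 14.05 to 14.06 on the ASP arrays and 15.15 to 15.20 on the CGP arrays. What part a different amount of liver cells or liver RNA in the pools has in the falls below was not tested.

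Apoa4 and Hamp fell the most, followed by the P450 gene Cyp4a12b and the fibrinogen chain Fgg. Apoa4, an apolipoprotein of chylomicrons and high density lipoprotein, read 9.33, 9.33 and 9.29 in ASP+CGP and 11.45, 11.54 and 11.60 in CON. Hamp, the peptide hormone hepcidin that limits iron release, read 8.77, 8.95 and 8.78 against 10.94, 11.04 and 10.996. No ASP+CGP array came within 1 log2 unit of any CON array for either gene, and the differences with the trend removed were -1.91 (adjusted p = 7.41e-10) and -1.84 (adjusted p = 3.09e-09). Fabp1, which carries fatty acids in the hepatocyte, read 7.55, 7.82 and 7.83 against 9.69, 9.67 and 9.66, 3.83-fold lower. Hrg, a histidine-rich plasma glycoprotein, stood at 6.70, 7.09 and 7.18 against 8.92, 8.84 and 8.83, 3.66-fold lower. Mat1a, the methionine adenosyltransferase of adult liver, read 9.73, 9.75 and 9.71 against 11.51, 11.53 and 11.47, 3.41-fold lower. With predicted genes and small RNAs set aside, the 12 genes with the largest falls were all on a liver list, with deposited differences from -1.68 to -2.21. The others were Cyp4a12b, Fgg, Cyp4a14, G6pc, Tdo2, Cyp1a2 and Apon.

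**Figure D3:**
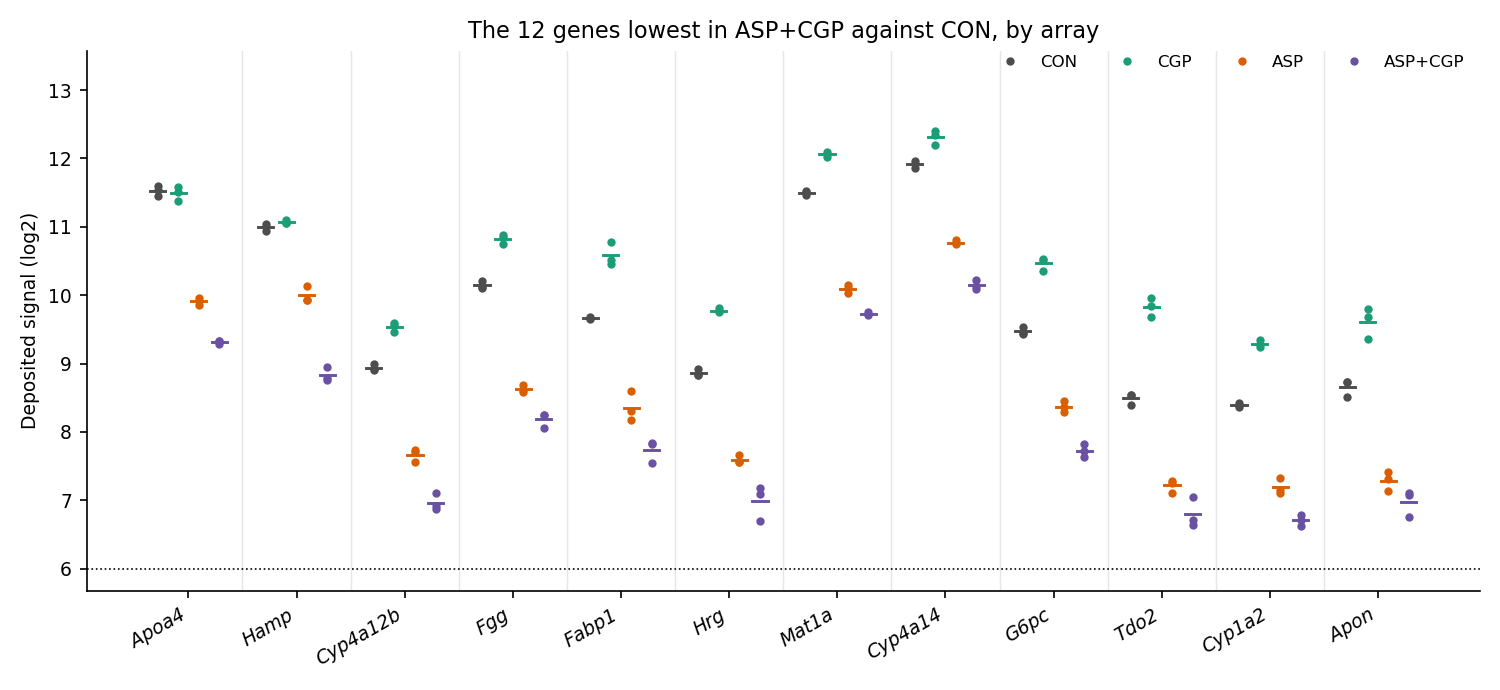
Deposited log2 signal (vertical axis) of the 12 genes lowest in ASP+CGP against CON, with 1 point for each of the 3 arrays of a pool, a short bar at the pool's mean and a dotted line at 6. In each gene the ASP+CGP points lie below the CON points with no overlap, and the ASP points lie between them.

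Plasma carriers were the most uniform list. Of the 21 tested genes 19 were lower both ways (90.5%), with a median difference of -1.08 on deposited values and -0.80 with the trend removed. Azgp1, a zinc-binding lipid mobilising glycoprotein, differed by -1.60, and Ambp, the precursor of alpha-1-microglobulin and bikunin, by -1.59. Rbp4, which carries retinol, differed by -0.81 and the thyroxine carrier Ttr by -1.05. The exceptions were Trf and Hamp2, a near relative of Hamp, at 0.28. Serpina1c, Serpina1d and Mup3 belong to families of near-identical copies whose probes may share targets, so that their separate values are uncertain.

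Among apolipoproteins and lipoprotein enzymes 13 of 18 were lower both ways, with a median of -1.12. Apoa2 read 10.55 to 10.83 against 12.22 to 12.29 in CON and differed by -1.54, and Apoa1, the main protein of high density lipoprotein, by -1.32. Lcat, which esterifies cholesterol on those particles, differed by -1.37. Apoe, which the adrenal cortex also makes, was not called, with 13.004, 13.001 and 12.87 against 13.24, 13.28 and 13.26 and a difference of -0.30. The phospholipid transfer protein Pltp stood at -0.18 and was not called either.

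The clotting list held 14 of 21 genes lower both ways, with a median of -0.93. All 3 fibrinogen chains fell: Fgg by 1.96, Fgb by 1.64 and Fga by 0.93 on the log2 scale. Vtn, the adhesion protein vitronectin, differed by -1.66, Kng1, the kininogen that releases bradykinin, by -1.57, and prothrombin, F2, by -1.37. Factor VII, F7, showed no such difference, with 6.96, 6.84 and 6.83 in ASP+CGP and 6.85, 6.88 and 6.88 in CON.

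Complement was more mixed, with 8 of 18 lower both ways and a median of -0.62. The terminal component C8g differed by -1.22 and the lectin pathway protease Masp2 by -1.09. C1ra, a protease of the first component that fibroblasts and other cells make as well, was higher with the trend removed (0.64, adjusted p = 0.00163) and stood at 0.43 on deposited values, where it was not called. Of acute phase proteins 10 of 15 were lower both ways, among them Itih4 (-1.61), the pentraxin Crp (-1.18) and the leucine-rich glycoprotein Lrg1 (-1.13).

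Drug-metabolising cytochromes P450 were lower both ways in 19 of 30 genes, with a median of -0.99. Cyp1a2, which oxidises caffeine, read 6.72, 6.62 and 6.79 in ASP+CGP and 8.36, 8.39 and 8.43 in CON. The fatty acid hydroxylase Cyp4a14 read 10.22, 10.13 and 10.09 against 11.92, 11.96 and 11.87. Cyp4a12b and Cyp4a12a, expressed mainly in males and nearly identical in sequence, differed by -1.97 and -1.64, and their separate values are uncertain because probes may read both. Cyp2e1, which oxidises ethanol, had a difference of -0.46 and was not called. Conjugating enzymes and carboxylesterases were lower in 14 of 32 genes, among them the esterase Ces3a (-1.63) and the glucuronosyltransferase Ugt2b1 (-1.34), whereas 3 glutathione transferases were not called: Gstp1 at -0.18, Gstm1 at -0.13 and Gstm2 at -0.15.

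Bile acid genes were lower both ways in 11 of 28 cases. Cyp7a1, which sets the pace of bile acid synthesis, read 5.75, 5.71 and 5.72 against 7.17, 7.26 and 7.16 (adjusted p = 1.53e-09), at least 2.29-fold lower with the ASP+CGP mean, which was under 6, set to 6. Cyp8b1, which sets the share of cholic acid, differed by -1.48 and Slc10a1, the bile acid importer of the sinusoidal membrane, by -1.47. Aspartame delivers phenylalanine, and of the genes that break down phenylalanine, tyrosine and tryptophan 7 of 17 were lower both ways. Tdo2, the first enzyme of tryptophan breakdown, read 6.64, 7.05 and 6.71 against 8.40, 8.54 and 8.55, and Tat, the tyrosine aminotransferase, 8.98, 9.01 and 9.01 against 10.60, 10.70 and 10.72. Hpd and Hgd, the next enzymes after Tat, differed by -1.54 and -1.51. Qdpr, which recycles the cofactor of the aromatic amino acid hydroxylases in many tissues, differed by -0.33 and was not called.

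Urea cycle and other amino acid genes were lower both ways in 13 of 24 cases. Cps1, the entry enzyme of the cycle, read 8.36, 8.47 and 8.38 against 9.87, 9.87 and 9.92, and Arg1, its last enzyme, differed by -1.30. Bhmt, which remethylates homocysteine, differed by -1.41. Genes of glucose, fructose and fatty acid handling were lower in 12 of 29 cases. G6pc, which releases free glucose, read 7.72, 7.83 and 7.63 against 9.45, 9.54 and 9.43, and the gluconeogenic Fbp1 differed by -1.55. Pck1, which fat also makes, had a difference of -0.32 and was not called. Of 21 liver transcription factors 3 were lower both ways: Hnf4a, Prox1 (-0.79) and the xenobiotic receptor Nr1i3 (-0.51). Foxa1, a pioneer factor of several epithelia, was higher, with 7.40, 7.28 and 7.58 against 6.96, 6.96 and 6.51 (0.61, SE 0.11, adjusted p = 0.000212). Biliary and other non-hepatocyte markers of liver showed no call both ways among 15 tested genes.

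Promoters of the liver genes were read for letters that hepatocyte factors are known to bind. RefSeq's table for build GRCm38.p6 held the promoter of 214 of the 270 liver-list genes, and the 250 bases before the start were searched on both strands. GTTAATNATT, the core bound by HNF1, was present in 10 of the 214 (4.67%), against 0.44% of all 27025 promoters of the table and 0.311% of the genes tested here. CAAAGTCCA, a site bound by HNF4, was present in 5 (2.34%), against 0.451% of all promoters. TATAAA, the start-site box of strongly transcribed genes, was present in 56 (26.2%), against 14.3% of all promoters. The 112 liver-list genes that were lower both ways and had a promoter held these letters in 4 (3.57%), 4 (3.57%) and 31 (27.7%) cases. A match is a description of the letters and not a bound site, and no motif searched contains another. The 6 promoters below, all of genes that fell, show the motif named in capitals, 5′ to 3′: HNF1 in G6pc (chr11:101367466-101367715, plus strand) and C4bp (chr1:130661619-130661868, minus strand), HNF4 in Cyp8b1 (chr9:121916306-121916555, minus strand) and Cyp2c67 (chr19:39649043-39649292, minus strand), and TATAAA in Fabp1 (chr6:71199629-71199878, plus strand) and Tdo2 (chr3:81975729-81975978, minus strand).
G6pc: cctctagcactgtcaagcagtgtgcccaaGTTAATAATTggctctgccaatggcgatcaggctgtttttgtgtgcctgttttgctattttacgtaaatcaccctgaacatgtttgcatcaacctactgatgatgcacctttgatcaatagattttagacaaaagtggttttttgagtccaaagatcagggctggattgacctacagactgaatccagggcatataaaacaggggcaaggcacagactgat
C4bp: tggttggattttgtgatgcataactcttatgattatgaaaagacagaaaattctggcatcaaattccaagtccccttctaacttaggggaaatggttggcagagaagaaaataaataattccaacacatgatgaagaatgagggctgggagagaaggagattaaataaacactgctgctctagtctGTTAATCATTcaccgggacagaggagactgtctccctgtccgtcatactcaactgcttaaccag
Cyp8b1: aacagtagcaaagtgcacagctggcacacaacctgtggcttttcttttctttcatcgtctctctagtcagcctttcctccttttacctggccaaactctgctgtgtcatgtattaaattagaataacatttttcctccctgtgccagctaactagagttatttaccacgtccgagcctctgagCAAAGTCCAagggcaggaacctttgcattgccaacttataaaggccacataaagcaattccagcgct
Cyp2c67: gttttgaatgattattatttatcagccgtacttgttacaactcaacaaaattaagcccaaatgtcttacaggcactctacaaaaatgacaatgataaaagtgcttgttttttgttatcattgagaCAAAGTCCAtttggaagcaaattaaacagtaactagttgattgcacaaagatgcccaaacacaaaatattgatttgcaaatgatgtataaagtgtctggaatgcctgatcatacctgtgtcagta
Fabp1: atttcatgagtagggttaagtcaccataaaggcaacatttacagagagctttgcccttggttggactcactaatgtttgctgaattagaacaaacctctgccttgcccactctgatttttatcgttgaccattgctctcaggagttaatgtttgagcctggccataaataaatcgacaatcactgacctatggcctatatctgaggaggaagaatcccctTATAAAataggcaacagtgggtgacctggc
Tdo2: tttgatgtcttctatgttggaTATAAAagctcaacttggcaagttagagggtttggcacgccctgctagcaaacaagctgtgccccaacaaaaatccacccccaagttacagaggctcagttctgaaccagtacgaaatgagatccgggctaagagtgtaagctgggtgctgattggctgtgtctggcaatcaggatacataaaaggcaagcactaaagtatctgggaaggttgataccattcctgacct
In Fabp1 the box began 30 bases before the start, where such boxes are known to work, and in Tdo2 the single match began 229 bases before it. C4bp, which binds complement C4b, differed by -0.97, and the P450 gene Cyp2c67, whose ASP+CGP mean of 5.43 was under 6, was at least 1.73-fold lower with that mean set to 6.

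All comparisons with CON share the same 3 CON arrays, and their values are set side by side here. Over the 270 liver-list genes the median differences from CON, trend removed, were -0.55 to -0.60 on the ASP+CGP arrays, -0.46 to -0.50 on the ASP arrays and 0.53 to 0.63 on the CGP arrays. Of the 141 genes lower both ways in ASP+CGP 136 were below CON in ASP and 5 below CON in CGP. Agt, angiotensinogen, was a case apart: it read 8.43, 8.67 and 8.58 in ASP+CGP, 9.61, 9.55 and 9.61 in CON and 11.30, 11.35 and 11.38 in ASP. It is on the list of astrocyte markers as well, whose median ASP minus CON difference was 1.86. Compared directly, 29 liver-list genes were lower and 3 higher in ASP+CGP than in ASP both ways, where 11.7% of all genes were lower and 2.4% higher. Against CGP 215 of the 270 were lower on deposited values and 199 with the trend removed, where 11% and 5.37% of all genes were lower.

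Of the 12 genes with the largest falls 8 were also lower than ASP both ways (11.7% of all genes), and all 12 lower than CGP (3.62%). The same 3 ASP+CGP arrays chose these genes, so that the counts are a description and nothing is read from them. Hamp separated the most, with 10.13, 9.93 and 9.93 on the ASP arrays and 8.77, 8.95 and 8.78 on the ASP+CGP arrays, a difference of -1.17. G6pc read 8.36, 8.46 and 8.29 in ASP, 7.72, 7.83 and 7.63 in ASP+CGP and 10.52, 10.54 and 10.36 in CGP. Of the 8 hepatocyte markers 1, Ttr, was lower than ASP both ways, with 11.34, 11.37 and 11.36 in ASP and 10.86, 10.73 and 10.74 in ASP+CGP, a difference of -0.58. Fgg, Mat1a, Tdo2 and Apon were the 4 leading genes that did not pass against ASP, with differences of -0.44, -0.37, -0.41 and -0.31.

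**Figure D4:**
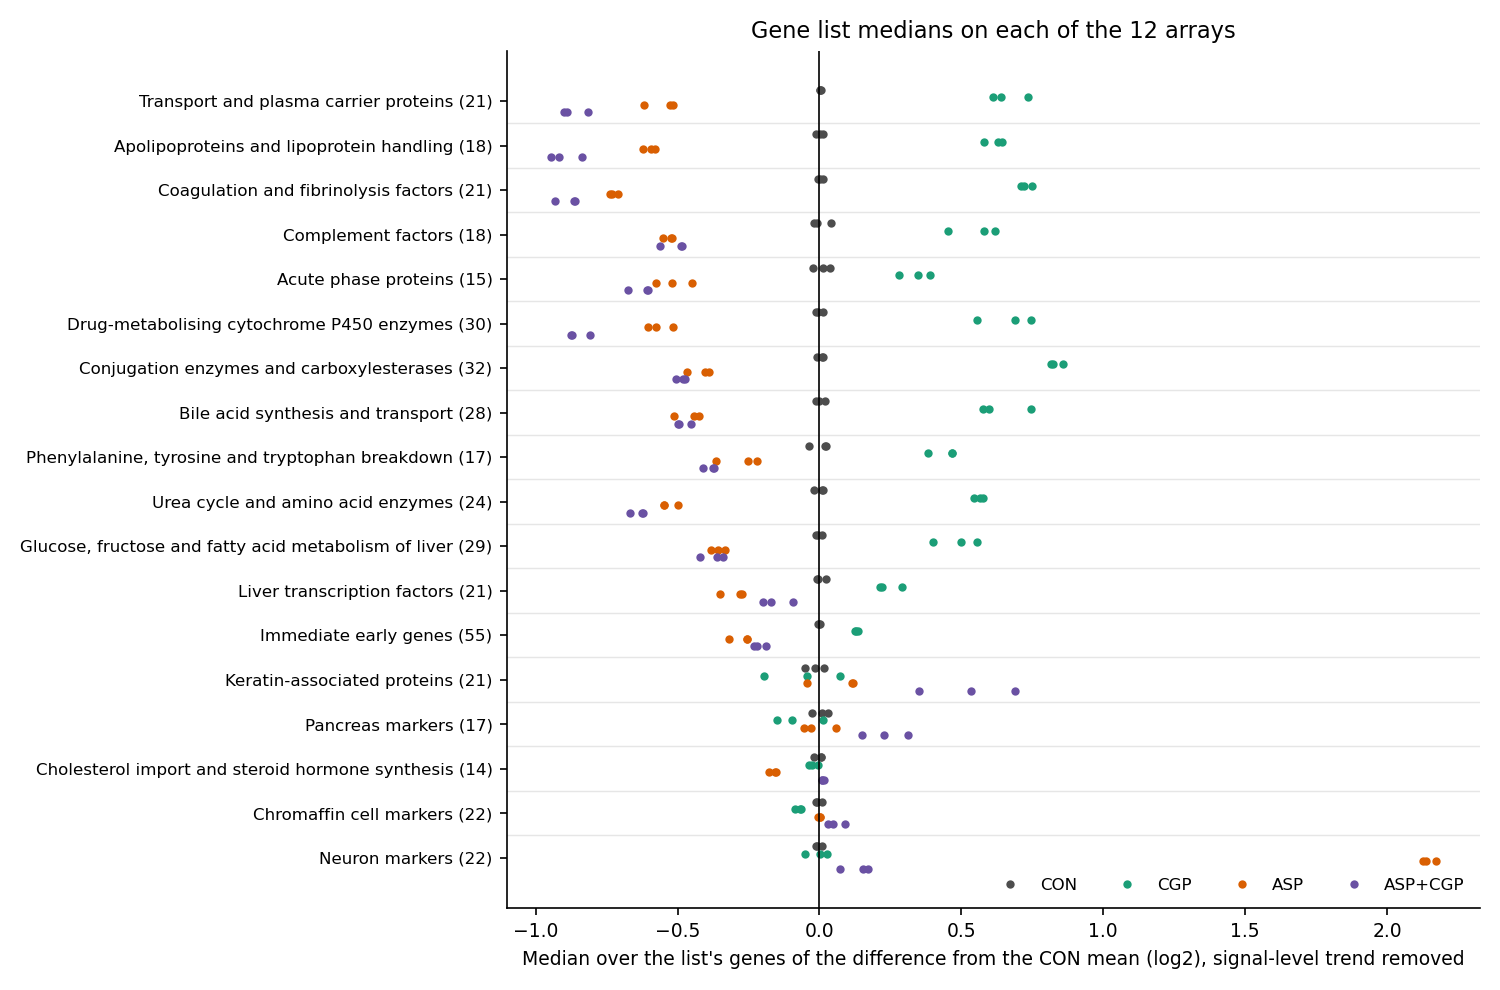
Median over each list's genes (number tested in brackets) of the difference from the CON mean, in log2 units with the signal-level trend removed, with 1 point for each of the 12 arrays coloured by pool. For liver lists CGP lies right of CON and both aspartame pools left of it, keratin-associated proteins and pancreas markers are right of CON in ASP+CGP, and neuron markers stand out in ASP and not in ASP+CGP.

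Immediate early genes, which cells switch on within minutes of stimulation, were the other group with many falls. On deposited values 22 of 55 were lower, where 8.32% of all genes were, and with the trend removed 11, where 3.38% were. Both ways 10 were lower (18.2%), against 2.16% of all genes, and the median went from -0.38 to -0.21. Ptgs2, the inducible cyclooxygenase, read 8.33, 8.47 and 8.30 in ASP+CGP and 9.56, 9.56 and 9.62 in CON (-1.22, SE 0.072, adjusted p = 2.02e-08). Gem, a small GTPase that damps calcium channels, read 9.64, 9.70 and 9.57 against 10.66, 10.75 and 10.70. Sik1, a kinase induced by ACTH in the adrenal, read 10.11, 10.17 and 10.01 against 11.04, 11.06 and 11.01. In none of these did the groups overlap. Plk3, Ier3 and Junb differed by -1.05, -0.95 and -0.90, and Nr4a2, an orphan nuclear receptor of the same early response in the cortex, by -0.83.

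Other well known early genes were not called. Nr4a1, a nuclear receptor, read 13.10, 13.12 and 13.09 against 13.39, 13.41 and 13.38 (-0.29). Fos stood at -0.33 on deposited values and -0.016 with the trend removed, and Egr1 at -0.13 and 0.10. All 10 genes lower both ways were below CON in ASP as well, with differences of -1.36 to -0.36, and above it in CGP, and none differed both ways between ASP+CGP and ASP. TGACGTCA, the full element bound by CREB, was present in 4 of the 40 early gene promoters in the table (10%), Btg2, Dusp1, Maff and Plk2, against 1.77% of all promoters, and in none of the 7 promoters of genes lower both ways.

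Clock genes gave 2 calls both ways among 20, both lower (10%, against 2.16% of all genes). Both genes were lower than ASP as well, where 11.7% of all genes were lower both ways. Cry2, a repressor of the clock, read 8.50, 8.54 and 8.39 in ASP+CGP, 9.35, 9.38 and 9.35 in CON and 9.46, 9.53 and 9.49 in ASP. Ciart, another repressor, read 5.998, 6.02 and 6.04 in ASP+CGP, 6.70, 6.64 and 6.45 in CON and 7.64, 8.18 and 7.45 in ASP. The ASP+CGP signals of Ciart thus lay at the floor of 6, where a size is uncertain. For both genes ASP+CGP was lowest and ASP highest of the 3 pools with no overlap. Adamts9, a secreted protease that cuts proteoglycans, was lower in ASP+CGP, at 8.76, 9.07 and 8.73 against 10.04, 10.15 and 10.20, and its relative Adamts17 was higher (0.50). Prl8a2, a prolactin relative known from the placenta, read 7.60, 7.82 and 7.71 against 8.89, 8.94 and 9.10, and it was below CON in ASP (-1.29) and in CGP (-0.95). Fn1, the matrix protein fibronectin, which liver also secretes, read 8.98, 9.21 and 8.93 in ASP+CGP and 9.95, 10.03 and 10.04 in CON. It was the only 1 of 17 fibroblast and capsule markers lower both ways (5.88%, against 2.16% of all genes). Alas2, the haem synthesis enzyme of red cell precursors, read 8.31, 8.35 and 8.41 against 9.07, 9.25 and 9.24. Of the 4 red blood cell genes tested it alone was below CON, and the median of the 4 was 0.23.

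Genes of the gland's own hormones gave few calls. Of 14 genes of cholesterol import and steroid synthesis 2 were lower both ways (14.3%, against 2.16% of all genes) and none higher. The median of the 14 was -0.099 on deposited values and 0.021 with the trend removed. Star, which brings cholesterol into mitochondria, read 13.53, 13.55 and 13.50 against 13.67, 13.62 and 13.64, and Cyp11a1, which cleaves its side chain, 13.61, 13.50 and 13.59 against 13.57, 13.55 and 13.56. The 2 groups overlapped for Cyp11a1 and lay next to each other for Star. Cyp17a1, which the adult mouse adrenal makes little of, was lower, with 7.46, 7.65 and 7.25 against 8.002, 8.21 and 8.15 (-0.67, SE 0.10, adjusted p = 7.04e-05), and it was -1.06 in ASP. Sult2a8, a sulphotransferase, was lower too but had means under 6 in both groups, so that no fold is given. Cyp11b2, the aldosterone synthase, and Nr5a1, the regulator SF-1, stood at -0.29 and -0.40 and were not called.

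Of 15 catecholamine genes none was called both ways. Pnmt, which makes adrenaline, stood at -0.23 and Dbh at -0.12 on deposited values. The noradrenaline transporter Slc6a2 was higher with the trend removed (0.59, adjusted p = 4.93e-05) and not called before (0.36). Gch1, which makes the cofactor of Th, was lower on deposited values only (-0.54 and, with the trend removed, -0.22). None of 22 chromaffin markers was called both ways, nor any of 18 macrophage, 8 lymphocyte or 20 endothelial markers, although 4 endothelial genes were lower on deposited values. The 50 respiratory chain and 14 reference genes gave no call on either scale.

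Of the 12 genes with the largest rises, predicted genes and small RNAs set aside, 4 were odorant receptors, 2 pheromone receptors and 2 keratin-associated proteins, and Prp2 rose the most. Prp2, a salivary proline-rich protein, read 10.04, 9.503 and 10.04 in ASP+CGP and 8.52, 8.45 and 8.49 in CON. Olfr1174, an odorant receptor of the nose, read 10.02, 9.21 and 9.74 against 8.61, 8.62 and 8.36. Krtap5-3, a cysteine-rich protein of hair, read 10.95, 10.14 and 10.66 against 9.71, 9.44 and 9.40. The groups did not overlap in these 3 genes, and the ASP+CGP arrays spread more widely than the CON arrays, with array 2 the lowest in each. Mroh5, a protein with HEAT repeats, read 8.79, 8.59 and 8.75 against 7.79, 7.69 and 7.60, 2.02-fold higher (adjusted p = 4.43e-05). That probe set had the largest difference of the 7 for Mroh5, of which the smallest was 0.17, and 4 of them were higher on deposited values and 3 both ways. Of the 12 genes 10 were also higher than ASP (2.4% of all genes) and all 12 higher than CGP (4.11%) both ways, counts that are again a description, since the ASP+CGP arrays chose the genes. Vmn2r60, a pheromone receptor, was tested through the ASP+CGP mean alone, so that it cannot count in these comparisons. It went from a CON mean of 5.03 to 6.04, which is a rise of at least 1.03-fold with the CON mean set to 6. The others were Olfr314, Krtap10-10, Ppy, Olfr1148 (at least 1.71-fold higher with its CON mean set to 6), Olfr320, Vmn1r86 and Cox8c.

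**Figure D5:**
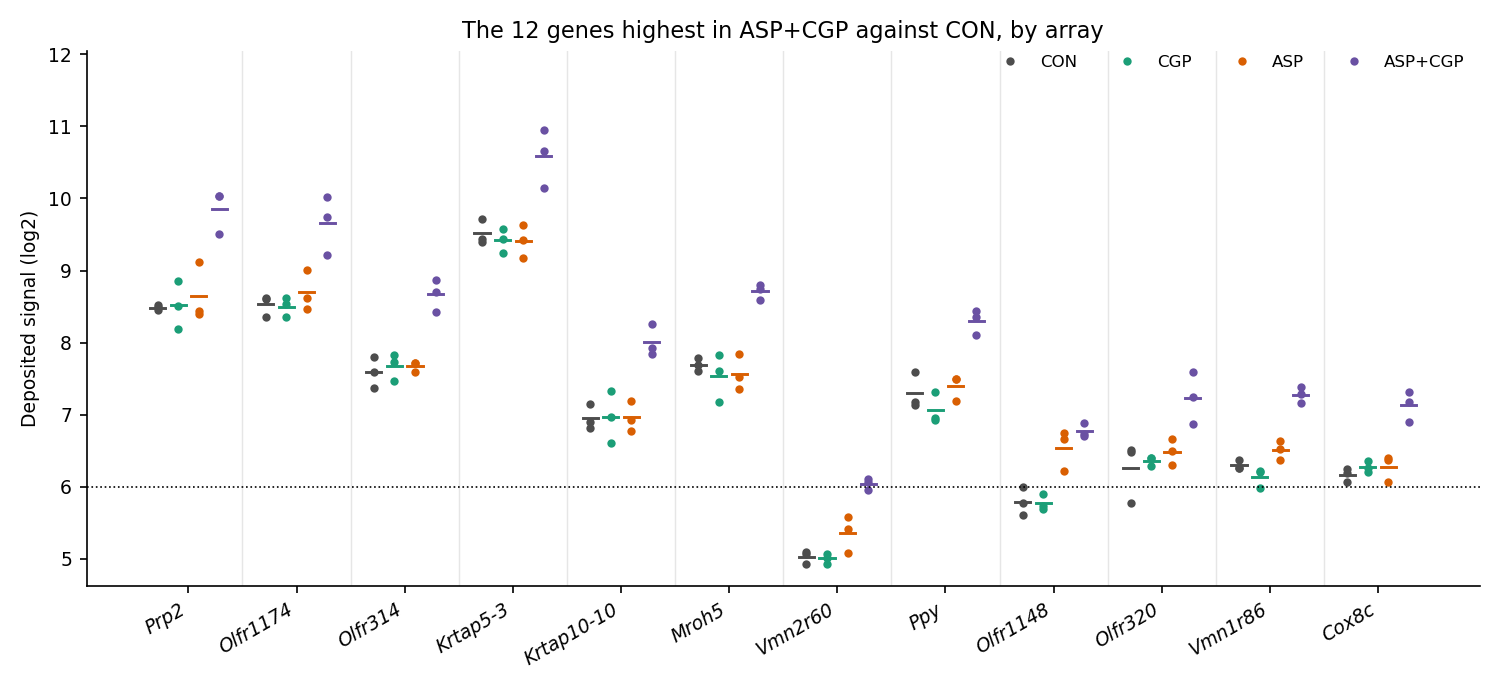
Deposited log2 signal (vertical axis) of the 12 genes highest in ASP+CGP against CON, with 1 point for each of the 3 arrays of a pool, a short bar at the pool's mean and a dotted line at 6. The ASP+CGP points lie above the CON points in each gene, ASP and CGP points lie below the ASP+CGP points except for Olfr1148 in ASP, and the CON points of Vmn2r60 and Olfr1148 are under 6.

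Keratin-associated proteins, which cross-link keratin in the hair shaft, rose as a group. Of 23 on the array 21 were tested, 3 of them through the ASP+CGP mean alone. On deposited values 15 were higher and with the trend removed 12, the same 12 both ways (57.1%, against 3.18% of all genes). None of the 12 was among those 3, and none of the 21 was lower on either scale. Of the other 18 the share was 66.7%, against 3.24% of all genes not tested through that mean alone. Krtap3-1 read 8.75 to 9.15 against 8.07 on average in CON, Krtap5-1 8.90, 8.52 and 8.89 against 7.76, 7.95 and 7.97 and Krtap10-10 8.26, 7.92 and 7.84 against 6.90, 7.15 and 6.82. The list median was -0.052 to 0.015 on the CON arrays, -0.044 to 0.12 on the ASP arrays, -0.20 to 0.071 on the CGP arrays and 0.35 to 0.69 on the ASP+CGP arrays, trend removed. Against ASP 14 of the 21 were higher on deposited values (6.55% of all genes) and 12 with the trend removed (3.25%), and against CGP 16 (8.57%) and 11 (5.69%). Members of the Krtap5 family are close in sequence and may share probes. Keratins themselves were higher both ways in 4 of 40 genes, led by Krt88 (0.94). None of the 4 was among the 10 tested through the ASP+CGP mean alone, and of the other 30 the share was 13.3%, against 3.24%.

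Odorant receptors depended on the scale. Of 191 on the array 166 were tested, 60 of them through the ASP+CGP mean alone, and 55 were higher on deposited values, 21 with the trend removed and 20 both ways (12%), against 3.18% of all genes. A receptor tested only because it is high in ASP+CGP cannot count for the list, and of the other 106 receptors 34 were higher on deposited values, 20 with the trend removed and 19 both ways (17.9%), against 3.24% of the 15387 genes left by the same condition. Pancreas markers were higher both ways in 5 of 17 genes (29.4%, against 3.18% of all genes). None of the 5 was among the 2 tested through the ASP+CGP mean alone, and of the other 15 the share was 33.3%, against 3.24%. With a trend fitted on the CON mean 1 pancreas marker was higher in place of 5. Of 4 defining pancreas markers 3 were tested, and their summed log2 signal was 8.21 to 8.44 on the ASP+CGP arrays and 7.79 to 7.84 on the CON arrays. Ppy, the pancreatic polypeptide hormone, read 8.36, 8.10 and 8.44 against 7.60, 7.18 and 7.13, and the others were the digestive enzymes Cpa1 (0.71), Pla2g1b (0.60) and Cela2a (0.51) and the zymogen granule protein Sycn (0.65). The defining pancreas markers Prss2 and Ins2 were not called, Prss2 with a CON mean of 5.86, under 6, and Ins2 with a difference of 0.38. Muscle markers were higher both ways in 3 of 24 (12.5%, against 3.18% of all genes). None of the 3 was among the 5 tested through the ASP+CGP mean alone, and of the other 19 the share was 15.8%, against 3.24%. The 3 were Tnni2 (0.77), Trdn (0.61) and Actc1 (0.59), while the defining markers Ckm and Acta1 were not called (0.44 and 0.13). Kidney tubule markers were higher both ways in 2 of 13 (15.4%, against 3.18% of all genes). They were Slc34a1, the phosphate transporter, at 7.62, 7.55 and 7.71 against 6.95, 6.82 and 6.76, and the urate transporter Slc22a12 (0.66). Of 4 defining kidney markers 2 were tested, with CON means of 6.03 and 6.84, where the median shift of all genes was 0.23. They summed to 8.14 to 8.30 in ASP+CGP and 7.44 to 7.57 in CON. Of 3 defining muscle markers 2 were tested, and they summed to 8.99 to 9.17 and 8.76 to 8.87. The part of other tissue in these rises was not tested.

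The calls moved with an array property. In each pool array 2 had the widest interquartile range. Of the 505 genes higher both ways 76.8% read lowest on array 2 of the ASP+CGP pool, where 27.6% of all genes did, 77.2% on array 2 of the ASP pool (29.7% of all genes) and 67.9% on array 2 of the CGP pool (24%). In the CON pool the share was 24.4%, against 21.1% of all genes. With the trend removed the shares were 80.4%, 74.3%, 75.8% and 26.5%. Of the 12 keratin-associated protein genes 11 read lowest on array 2 of ASP+CGP. For genes that fell the matching order is to read lowest on the narrowest array, array 1 in CON and array 3 in the other pools. Of the 141 liver-list genes lower both ways 41.1% did so in ASP+CGP (39.5% of all genes), 40.4% in ASP (26.9%), 61% in CGP (34.7%) and 56.7% in CON (49.3%). With the trend removed the shares were 29.8% in ASP+CGP (30.2% of all genes), 48.9% in ASP (34.8%), 52.5% in CGP (32.6%) and 39.7% in CON (33.1%). The shares were above those of all genes in ASP, CGP and CON and close to them in ASP+CGP. What part the spread of signals on an array has in the rises and falls was not tested.

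Calcium store genes were read by several probe sets. Tmem38b, a potassium channel of the endoplasmic reticulum that balances calcium release, has 2. The one used here read 7.77, 7.91 and 7.87 in ASP+CGP against 8.11, 8.21 and 8.23 in CON and was not called (-0.33). The other read 8.86, 8.44 and 8.65 against 6.62, 6.71 and 6.52, 4.09-fold higher (adjusted p = 3.2e-07 over probe sets). The 2 probe sets thus gave different results for the gene. Trdn, which anchors the calcium release complex of muscle, has 5, with differences from 0.43 to 1.01, of which 4 were higher on deposited values and 3 with the trend removed. Plb1, a phospholipase of gut and skin, has 5 as well, all of them higher, from 0.52 to 1.09, and 3 of them with the trend removed. Of 25 calcium store genes 2 were higher both ways (8%, against 3.18% of all genes), Trdn and the junction protein Jph2 (0.51), and none was lower. Neither was among the 2 tested through the ASP+CGP mean alone.

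MicroRNA genes were called in both directions. A probe set of this kind reads the precursor region and does not tell the 2 mature arms apart. Of 154 on the array 141 were tested, 8 of them through the ASP+CGP mean alone. Both ways 30 were higher (21.3%, against 3.18% of all genes) and 7 lower (4.96%, against 2.16%). Of the 30, 1 was among those 8 and cannot count for the list. Of the other 133 genes 29 were higher both ways (21.8%), against 3.24% of all genes left by the same condition. Mir346 read 10.68, 10.37 and 10.58 in ASP+CGP and 9.63, 9.44 and 9.41 in CON, Mir680-3 9.63, 9.34 and 9.56 against 8.68, 8.55 and 8.52, and Mir692-1 12.22, 12.27 and 12.50 against 11.74, 11.32 and 11.37. Lower were Mir300, with 6.61, 6.75 and 6.39 against 7.52, 7.61 and 7.55, and Mir323, with 7.01, 7.43 and 7.02 against 7.85, 7.63 and 7.98, without overlap. Mir380 was called lower too but had means under 6 in both groups, so that no size is given. Mature sequences of the genes furthest from CON, from RefSeq (GRCm38.p6), follow 5′ to 3′ with the seed, bases 2 to 8, in capitals. The first 6 belong to the genes that were lower and the last 4 to genes that were higher, and no seed is shared between them. Among the genes that were higher both ways 4 pairs share a seed: Mir326 and Mir330, Mir138-1 and Mir138-2, Mir194-1 and Mir194-2, and Mir204 and Mir211.
mmu-miR-300-5p: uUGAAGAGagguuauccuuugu
mmu-miR-300-3p: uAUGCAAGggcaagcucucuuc
mmu-miR-380-5p: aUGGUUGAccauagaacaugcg
mmu-miR-380-3p: uAUGUAGUaugguccacaucuu
mmu-miR-323-5p: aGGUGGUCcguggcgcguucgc
mmu-miR-323-3p: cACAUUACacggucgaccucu
mmu-miR-346-5p: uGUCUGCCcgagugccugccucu
mmu-miR-346-3p: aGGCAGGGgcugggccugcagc
mmu-miR-680: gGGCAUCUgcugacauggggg
mmu-miR-692: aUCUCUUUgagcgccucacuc
Mir300, Mir380 and Mir323 lie in the imprinted microRNA cluster on chromosome 12 (109571990 to 109743496, GRCm38.p6), and 6 of the 7 genes that were lower are in that cluster. Of the 27 tested genes that RefSeq's table places in it 6 were lower and 1, Mir667, was higher both ways. The other 114 genes, which lie outside it or have no position in that table, held 1 lower, Mir18, and 29 higher. Some genes without a position may belong to the cluster. The protein-coding and long noncoding genes of the same region, looked at after these values were seen, were not called: Dlk1 stood at -0.16, Rtl1 at -0.27, Meg3 at -0.16 and Rian at -0.28. RefSeq's table held the hairpin of 115 of the 141 genes. The GC content of the hairpin had a median of 58.8% in the 23 genes that were higher, 43.8% in the 7 that were lower and 53.8% in the other 85. Across the 115 genes GC content went with the difference, with Pearson's r = 0.472 and Spearman's rho = 0.438 on deposited values and 0.57 and 0.565 with the trend removed, a description across genes that share the same arrays. With ASP minus CON the r was 0.271 and with CGP minus CON -0.21.

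NMDA receptor subunits, the targets of the antagonist, gave 1 call. Of 8 listed genes 7 were tested. Grin1 was not among them, so that nothing is said of that subunit. Of the 7, which include the associated protein Grina, 1 was higher on deposited values and none with the trend removed. That gene, Grin3b, a subunit that binds glycine, read 7.20, 7.01 and 7.27 against 6.66, 6.58 and 6.62 (0.54, and 0.40 with the trend removed). Grin2a, Grin2d and Grin3a had CON means of 6.02, 6.54 and 6.73 and differences of 0.16, 0.27 and 0.14, none of them called. Grin2b, with a CON mean of 5.95, under 6, was not called either. Grin2c stood at -0.092, and Grina, an associated protein found in many tissues at -0.047.

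Brain genes were lower in ASP+CGP than in ASP. All 22 neuron markers were lower in ASP+CGP than in ASP both ways, where 11.7% of all genes were, as were 17 of 18 oligodendrocyte and 16 of 18 astrocyte markers and 12 of 14 GABA receptor subunits. Camk2a, a kinase of excitatory synapses, read 6.67, 6.59 and 6.68 in ASP+CGP, 6.50, 6.37 and 6.23 in CON and 10.75, 10.70 and 10.55 in ASP. Mbp, the basic protein of myelin, read 7.94 to 8.05 in ASP+CGP, 7.81 to 7.91 in CON and 11.33 to 11.39 in ASP. In both genes the ASP arrays stood far above the other 2 pools, and neither was called against CON. Against CON 2 of the 22 neuron markers were higher both ways (9.09%, against 3.18% of all genes), Nefl (0.74) and Tubb3 (0.62). Of 20 hypothalamic peptide genes 2 were higher both ways (10%), Oxt (0.82) and Hcrt (0.65). These stayed far below ASP, where Oxt read 10.58, 10.68 and 10.69 and Hcrt 10.64, 10.83 and 10.55. The summed log2 signal of the defining neuron markers was 11.48 to 11.62 on the ASP+CGP arrays, 11.69 to 11.76 on the CON arrays, 11.64 to 11.69 on the CGP arrays and 13.71 to 13.81 on the ASP arrays. For these genes an effect of adding the antagonist and a difference in what the ASP pool holds cannot be told apart.

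Other genes that the study names for this treatment were read as well. Cyp3a11, a P450 of liver, read 8.79, 9.19 and 8.999 in ASP+CGP and 9.98, 10.09 and 9.94 in CON and differed by -1.01. Krtap5-4 read 7.32, 6.99 and 7.22 against 6.55, 6.57 and 6.47. Slc6a5, the glycine transporter of nerve endings, read 10.09, 10.34 and 10.22 against 10.71, 10.80 and 10.74 and Cdc23, a subunit of the anaphase-promoting complex, 8.80, 8.88 and 8.997 against 9.31, 9.15 and 9.16, with differences of -0.53, called on deposited values only, and -0.32, not called.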

How the data were processed

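Total RNA of snap-frozen adrenals, extracted with the RNeasy Lipid kit and pooled within each group, was hybridised to Affymetrix Mouse Gene 1.0 ST arrays, 3 for each of 4 pools. The deposited table holds log2 signals, which the authors made in Partek by RMA with background correction, quantile normalization and median polish, leaving out probe sets below 6. Versions are not given in the sources used here. The intensity behind a value and the number of arrays limit its precision.

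Groups came from the sample labels. Of 26533 probe sets 17710 carried 1 gene symbol in the platform annotation, 1077 several and 7746 none. Of 16244 genes 344 were dropped because no group mean reached 6. A limma model (version 3.58.1, R 4.3.3) with a term for each of the 4 groups took in the 12 arrays, with Benjamini-Hochberg adjustment over 15900 genes, and every adjusted p given is from limma. Calls needed an adjusted p under 0.05 and a difference of 1.4-fold. For the trend-removed scale a loess curve (span 0.3) of each array's deviation against mean signal was subtracted before the same fit. Tests were tried on simulated data. Alternatives were other floors, folds, scalings, trends, weights, a replicate block and leaving out each array. Members and the 47 lists were chosen with earlier results of these data known. Columns not used numbered 0.

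Named genes are the 12 highest and 12 lowest called both ways (predicted, clone-named and small RNA genes set aside), up to 6 members of a list with the largest difference in its direction and up to 4 with the highest signal, defining cell markers, NMDA receptor subunits and genes named by the study. C1ra, Cyp2c67, F2, F7, Fga, Fos, Foxa1, Hamp2, Mup3, Pltp, Serpina1d, Slc6a2, Btg2, Maff, Plk2, Mir18, Mir300, Mir323 and Mir380, the neighbours of the microRNA cluster and the microRNA pairs with a shared seed were named after their values were seen. Mean signals under 6 were taken as bounds.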

Additional observations from a re-analysis of the deposited data

Results flagged for a closer look

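The difference that aspartame made was not the same with and without the antagonist for 32 of 37 leading or study-named genes looked at. Over all 15900 genes tested the term was called for 24.6%, below 0 for 15.5% and above 0 for 9.02%. For each gene the log2 difference ASP+CGP minus CGP was set against ASP minus CON by the interaction term of the limma model, adjusted over all genes tested. The terms are on deposited values. With the trend removed those of Apoa4 (-0.46) and Vmn2r60 (0.46) missed the 1.4-fold minimum. These genes were chosen from the comparison of ASP+CGP with CON, which shares arrays with the term, so that the values are a description and no independent test.

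For 17 genes the term was below 0, that is, the aspartame difference was further to the lower side when the antagonist had been given. All 17 are on a liver list, and the summed log2 signal of the hepatocyte markers differed between the pools, with 15.15 to 15.20 in CGP, 14.61 to 14.65 in CON, 14.05 to 14.06 in ASP and 13.60 to 13.74 in ASP+CGP. The part of liver cells or liver RNA in these terms was not tested. Agt, angiotensinogen, had -3.28: its ASP minus CON difference was 1.75 and its ASP+CGP minus CGP difference -1.53. Agt is an astrocyte marker as well, and the astrocyte list had a median ASP minus CON difference of 1.86. Cyp3a11, the main drug-metabolising P450 of mouse liver, had -2.74, with 0.22 and -2.51. The secreted proteins and lipid carriers were Apoa4 (-0.57), Hamp (-1.24), Fgg (-1.12), Fabp1 (-1.54), Hrg (-1.52), Apon (-1.26), Vtn (-2.04), Lcat (-1.62) and Ttr (-1.32). The enzymes were Cyp4a12b (-1.30), Mat1a (-0.93), Cyp4a14 (-1.02), G6pc (-1.64), Tdo2 (-1.75) and Cyp1a2 (-1.38).

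The other 15 terms were above 0. Keratin-associated proteins were Krtap5-3 (1.27), Krtap10-10 (1.03), Krtap5-1 (0.95), Krtap5-4 (0.85) and Krtap3-1 (0.79). Odorant and pheromone receptors were Olfr1174 (0.99), Olfr314 (0.91) and Vmn1r86 (0.93). For the pheromone receptor Vmn2r60 the fitted term was 0.71, but its means in CON, ASP and CGP were all under 6, so that no size can be read from it. The rest were Prp2 (1.18), Mroh5 (1.29), Ppy (1.14), Cox8c (0.75), Plb1 (1.06) and Trdn (1.13). The term did not pass for Olfr1148, Olfr320, Tmem38b, Slc6a5 and Cdc23.

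Probe sets outside the gene comparison also held calls. Of the 7228 tested without a gene symbol 1044 were higher and 639 lower in ASP+CGP than in CON both ways. Of the 1050 with several symbols 68 were higher and 24 lower. Of the 17319 with 1 gene symbol 540 were higher and 453 lower, in both directions a smaller share than among those without a symbol. Over all genes tested the shares were 3.18% and 2.16%.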

How the results depend on the processing

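Counts in both directions depended on the scaling. Against CON, 1323 genes were lower on deposited values, 538 with the trend removed, 487 with cyclic loess, 630 with quantile normalization and 320 with equal array medians, where 2367 were higher. Against CGP the trend removed gave 904 higher and 854 lower, cyclic loess 901 and 749, equal medians 2901 and 496 and quantile normalization 842 lower. Against ASP the lower genes numbered 1509 to 2151 across these scalings and the higher genes 516 with the trend removed, 593 with cyclic loess, 2597 with equal medians and, in the trend-removed comparison, 1620 with a straight line per array. A floor of 7 left 639 higher genes against CON, 637 against ASP and 841 against CGP. A 1.8-fold minimum left 47 higher and 144 lower against CON, 48 and 1040 against ASP and 107 and 315 against CGP, and with the trend removed 108 and 115, 42 and 1120, and 188 and 275. The cause was not tested.

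Leaving out 1 array at a time gave 791 to 1383 higher and 1107 to 1919 lower genes against CON, the highest counts without ASP+CGP replicate 2, and 618 to 953 and 456 to 724 with the trend removed. With the replicate block the counts were 969 and 1323, and 747 and 538, as without it. Every pool holds each number once, so the block leaves each difference as it is, and equal counts settle nothing about the numbers. The main fit did not pair arrays by number. Same-numbered arrays correlated at -0.15 to 0.38. This range is not one of whole signals, which correlated at 0.960 to 0.978 between CON and ASP+CGP arrays. Of 12 arrays 7 correlated best with an array of their own number, and array 2 had the widest interquartile range in each pool. Whether the numbers mark a shared batch was not tested. A trend fitted against the CON mean, chosen after seeing the data, gave 548 higher and 454 lower. With it 10 keratin-associated protein genes were higher in place of 12. With equal medians 111 odorant receptors, 16 muscle and 11 pancreas markers were higher. Tmem38b turned from a fall to 0.85 when all its probe sets were averaged.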

Other observations

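Several lists fixed for the comparison gave few calls. Of 28 heat shock genes none was called both ways, and 3 were lower on deposited values. Of 24 glucocorticoid genes 2 were lower both ways (8.33%, against 2.16% of all genes). They were Tat and Lcn2, a siderophore-binding protein of the acute phase (-0.89). No gene was called both ways among 24 interferon-stimulated genes, 44 ribosomal proteins and 24 genes of cholesterol synthesis and transport. Of 19 fat markers 1 was lower both ways (5.26%), Lep, the hormone leptin. It read 6.05, 6.55 and 6.07 in ASP+CGP and 6.59, 7.03 and 6.91 in CON. Of 15 beta-defensins 3 were tested through the ASP+CGP mean alone. Of the other 12, 4 were higher on deposited values and 1, Defb46 (0.68), both ways (8.33%, against 3.24% of all genes left by the same condition). Of 52 small nucleolar and Cajal body RNAs 2 were lower both ways (3.85%), Snord37 (-0.61) and Snord96a (-0.55).

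Outside all lists 171 genes were lower and 416 higher both ways. The lists did not hold all liver genes, and the lower genes that no list held, named here after their values were seen, began with Mettl7b, a methyltransferase-like protein of lipid droplets (-1.57), Cpn1, the carboxypeptidase of plasma that inactivates kinins (-1.52), and Rdh7, a retinol dehydrogenase (-1.38). Ttpa, the carrier of vitamin E (-1.04), and Aqp9, the glycerol channel of hepatocytes (-1.01), were among the first 12. For these 5 genes ASP minus CON was below 0 and CGP minus CON above 0. Spty2d1, a histone chaperone, and Eprs, a transfer RNA synthetase, differed by -1.02 and -0.99, with ASP minus CON differences of -0.91 and -1.14 and CGP minus CON differences of 0.064 and -0.082.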
